A study of Mus musculus with 22 samples.

Results

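Distal tubule cells and collecting duct principal cells of the mouse kidney were taken from 11 single-cell libraries of pooled organs, and are described here side by side. A droplet barcode entered as a distal cell when it held at least 1 unique molecular identifier (UMI, a tag that stands for 1 captured transcript) of Slc12a3 together with at least 1 of Pvalb, Calb1 or Klk1. It entered as a principal cell when it held at least 1 UMI of Aqp2 together with at least 1 of Hsd11b2, Fxyd4 or Aqp3. Both kinds needed at least 200 detected genes, at most 60% mitochondrial UMIs and 0 UMIs of the leukocyte gene Ptprc, the thick limb gene Umod and the intercalated cell gene Atp6v1g3. These gates took 497 of the 151494 barcodes that passed the gene and mitochondrial limits, which is 0.328%, and of 179929 barcodes in the whole series. There were 415 distal and 84 principal cells, including 2 that passed both gates and are left out of each group's values unless stated, so that 413 and 82 cells remained.

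All mice carried Prom1-CreERT2, a tamoxifen-dependent recombinase driven by the Prom1 promoter, and the Rosa26ZSG lineage reporter, and had been given tamoxifen as pups or young adults. The wt group (5 libraries) had intact Nalcn, the gene of a sodium leak channel, while het (2 libraries) and null (2 libraries) carried conditional Nalcn alleles and were labelled Nalcn-het and Nalcn-null. Each library pooled kidney, liver, lung and stomach with epididymis or uterus from mice aged 551 to 654 days, and deletion is limited to cells in which the Prom1 promoter was active. By the labels 3 of the 5 wt libraries were from males and 2 from females. Both het libraries were labelled male, and the null group 1 male and 1 female. In null 3, labelled female, 10 epididymal genes made up 1.99% of the UMIs of passing barcodes outside both gates. They made up 0.0695 to 2.06% in the male libraries, and 0.000614 and 0.00106% in the female wt 4 and wt 5. The sex label of null 3 is thus in doubt, and the reason was not tested. Another pair of tissue libraries carried conflicting genotype labels, and their 17 and 101 cells are described but enter no genotype comparison. The libraries wt 1 and wt 2 share sex and age, as do het 1 and het 2, and whether such a pair came from 1 animal is not stated, so p-values measure the spread between libraries.

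In the distal convoluted tubule sodium chloride is taken up by the thiazide-sensitive cotransporter that Slc12a3 encodes, and a kinase cascade headed by WNK kinases sets its activity. The late distal and connecting tubule reabsorb calcium through an apical channel, buffer it with calbindins and expel it by exchange for sodium. Principal cells of the collecting duct take up water through the vasopressin-regulated channel encoded by Aqp2 and sodium through the epithelial sodium channel. Hsd11b2 lets aldosterone reach its receptor in these cells by inactivating glucocorticoids, and Fxyd4 encodes a regulator of the sodium pump.

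The tissue libraries held between 8571019 and 139793927 UMIs, and the median UMI count of passing barcodes was 3527 to 3604 in wt 1, wt 2 and wt 5 and 846 to 2154 in the other 6 libraries with a genotype. Distal cells had a median of 1908 UMIs and 825 genes, with 36.1% of UMIs mitochondrial. Principal cells had 3253 UMIs, 1365 genes and 21.0% mitochondrial UMIs. The depth and the mitochondrial share therefore differed between the groups, with 298 of 413 distal cells but 35 of 82 principal cells above 25% mitochondrial UMIs. A doublet caller (Scrublet) marked 114 of the 497 cells. It was set to mark a fixed share of the passing barcodes of each library, from 1.48% in wt 5 to 22.3% in wt 4. Its own threshold would have marked 76 in place of 730 barcodes in wt 1, and 3841 in place of 1752 in wt 3. Across libraries 2758 passing barcode sequences occurred in 2 or more, and 0 of the 497 members had such a sequence in common with another member. The sorted blood and blood mononuclear libraries gave 0 members among 2887 passing barcodes, which allows a share of up to 0.104%. The sorted blood libraries came from wt, het and null mice of 551 to 649 days. The mononuclear library, with 702 of these barcodes, came from a wt male of 120 days.

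**Figure D1:**
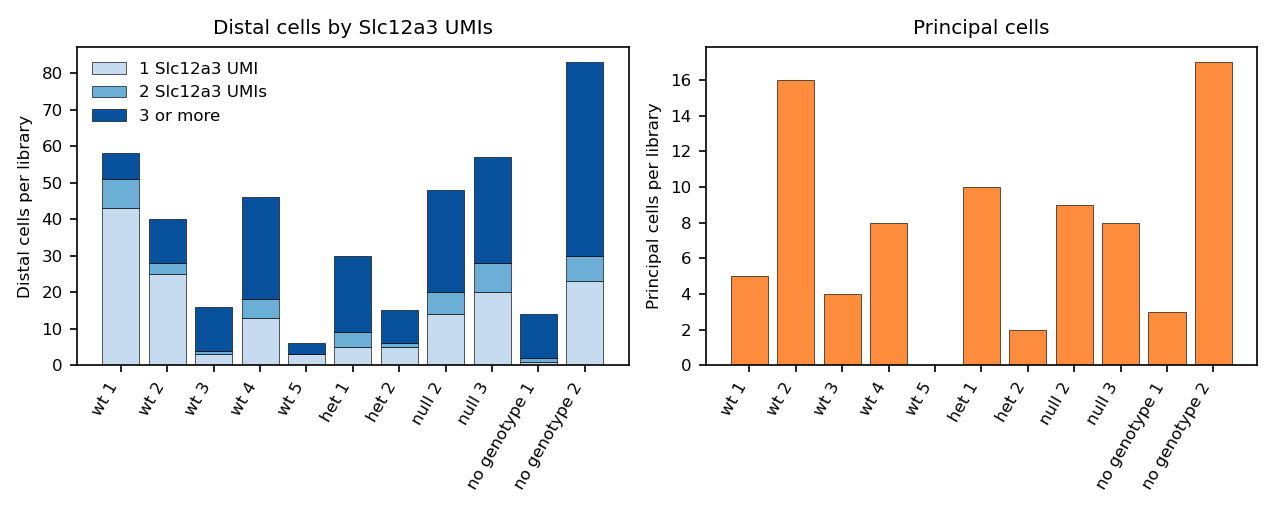
The left panel plots the number of distal cells in each tissue library (bars), split by the number of Slc12a3 UMIs in the cell, and the right panel the number of principal cells, both without the 2 cells that passed both gates. Cells with 1 Slc12a3 UMI made up 43 of 58 in wt 1 and 25 of 40 in wt 2, and wt 5 held 0 principal cells.

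The genes of the gates were described without a test, since they chose the cells. Slc12a3 (chr8:94329201-94366214, plus strand, GENCODE annotation of mm10) summed per library stood at 1283 UMIs per 1000000 UMIs of the sum (CPM) in the distal cells of wt 1 and 2231 in wt 2, and between 4914 and 6649 in the other 7 libraries with a genotype. The libraries wt 1 and wt 2 were thus below all others. Klk1, which encodes tissue kallikrein, ran from 2400 to 10270 CPM in distal cells with a median of 6621. Calb1, the calcium buffer calbindin, ran from 632 to 3690 CPM with a median of 2412. Pvalb, the calcium buffer parvalbumin of the early distal tubule, was sparse, at 0 to 369 CPM, and only 51 of 413 distal cells had a UMI of it.

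Aqp2 (chr15:99579055-99584547, plus strand) stood at 3308 to 8329 CPM in the principal cells of the 6 libraries with at least 5 of them, and at 0 to 11.8 CPM in distal cells. Fxyd4 ran from 1764 to 3151 CPM and Aqp3, the basolateral water channel, from 517 to 2133 CPM in principal cells. Hsd11b2 varied most among these markers, from 98.9 CPM in wt 1 to 3515 CPM in wt 4. The ranges of Aqp2, Fxyd4 and Aqp3 did not overlap between the groups, which the gates largely fix.

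Because depth differed, cells were thinned to 1000 UMIs, which left out 74 distal and 4 principal cells. Slc12a3 was then seen in 78.2% of 339 distal cells (100% before thinning), in 0 of 78 principal cells and in 1.39% of leukocytes with Ptprc, cells that should lack the gene. Aqp2 was seen in 82.1% of principal cells (100% before), 0.295% of distal cells and 0.0939% of leukocytes. Wnk1, which no gate used, was seen in 63.7% of distal (77.5% before) and 16.7% of principal cells (42.7% before), against 26.4% of leukocytes and 9.54% of proximal tubule barcodes. Slc34a1, the phosphate transporter of the proximal tubule, was seen in 18.6% of distal and 19.2% of principal cells, near its 15.2% in leukocytes, and in 96.2% of proximal tubule barcodes.

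The distal gate admitted cells of unequal certainty. A single Slc12a3 UMI was all that 155 of 413 cells (37.5%) had, while 44 had 2 and 214 had at least 3. Klhl3, an adaptor of the ubiquitin ligase that degrades WNK kinases and no part of the gate, had a UMI in 14.8% of cells with 1 Slc12a3 UMI, 20.5% of those with 2 and 61.2% of those with 3 or more. Wnk1 followed the same order at 61.9%, 65.9% and 91.1%, with median depths of 1721, 1258 and 2337 UMIs. Among cells with 1 Slc12a3 UMI 20 drew over 5% of their UMIs from the markers of another epithelium, against 3 of those with 2 and 0 of 214 with 3 or more. Of these 23 cells 14 were high in proximal tubule genes, 12 of them in wt 1, and 5 in epididymal genes.

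The markers of other cell types are given for all libraries with a genotype. The 12 proximal tubule genes summed to 0.0619 to 2.69% of UMIs in distal cells and 0.0403 to 1.72% in principal cells. In the distal cells of wt 1 with 1 Slc12a3 UMI they reached 3.34%, and in those with 3 or more 0.0881%. The 10 epididymal genes reached 2.92% in distal and 6.30% in principal sums. The 6 stomach epithelium genes reached 1.41% in the distal sums of het 1, and 4.49% in its cells with 1 Slc12a3 UMI, and the 4 lung epithelium genes reached 0.682% in those of wt 2. In principal sums these lists stayed at or below 0.0724%. The 4 globin genes reached 5.04% in distal and 2.72% in principal sums. Hepatocyte, urothelium, endothelium and fibroblast genes stayed at or below 0.0935% in both groups. Thick limb genes stayed at or below 0.0708% and intercalated cell genes at or below 0.00585%, with Cldn16 at 0 in both groups and Foxi1 and Slc4a9 at 0 in both groups. Their part in the results below was not tested beyond the alternatives that are given.

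The Umod limit also shaped the distal group. It alone removed 838 barcodes that otherwise met the distal gate, of 1292 removed by any of the 3 excluding genes. Just outside the limit, the 147 barcodes with a single Umod UMI had 5421 CPM of Slc12a3 and 1685 CPM of Calb1 in their pooled sum, compared with 3842 and 2517 CPM in the distal cells. Those with 2 or more Umod UMIs had 8191 CPM of Slc12a3 and 552 CPM of Pvalb, against 111 CPM of Pvalb in the distal cells. Barcodes removed by Umod therefore held as much or more Slc12a3 than those retained. A further 1552 barcodes had Slc12a3 but none of its 3 partners, with 268 CPM of Slc12a3, and 117 had Aqp2 without a partner, with 323 CPM of Aqp2. At the mitochondrial limit, 85 members lay between 50 and 60%, where Slc12a3 pooled over both kinds stood at 3237 CPM, and barcodes of 60 to 70% that met the other conditions stood at 3223 CPM.

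Distal cells with at least 3 Slc12a3 UMIs fell along a range of calcium handling genes. This division was chosen after the data had been seen and is given without a test. S100g, which encodes the small calbindin that carries calcium through the cell, had a UMI in 119 of 151 cells with Calb1 (78.8%) and in 11 of 63 without it (17.5%). Kl, the gene of klotho, had a UMI in 84.8% and 22.2%. Trpv5, the apical calcium channel, was found in 27 cells with Calb1 and 0 without, and Slc8a1, the sodium-calcium exchanger, in 58 and 3. Median Slc12a3 was 20 and 17 UMIs per cell, and median depth was 2653 and 1596 UMIs, whose part in the contrast of shares was not tested.

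Levels scaled to depth gave the same order for S100g in each of the 5 libraries with at least 5 cells on either side. S100g stood at 23510, 11500, 39380, 24920 and 25500 CPM with Calb1 in het 1, null 2, null 3, the second library without a genotype and wt 4. Without Calb1 it stood at 0, 7889, 498, 1011 and 0 CPM in the same libraries. Sfrp1, a secreted inhibitor of Wnt signalling, was also higher with Calb1 in all 5, at 717 to 1237 CPM against 53.2 to 292 CPM. Kl and Klk1 were higher with Calb1 in 4 of 5 libraries and lower in null 2, where Kl stood at 1076 and 1607 CPM and Klk1 at 9186 and 21910 CPM with and without Calb1. Since a distal cell without Calb1 had to hold Klk1 or Pvalb to enter, the gate partly sets the Klk1 values. Fxyd2, a small subunit of the sodium pump, was lower with Calb1 in 4 of 5 libraries and nearly equal in wt 4 (3896 and 3844 CPM). Slc12a3 itself had no common order, being higher with Calb1 in het 1 and null 2 only.

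**Figure D2:**
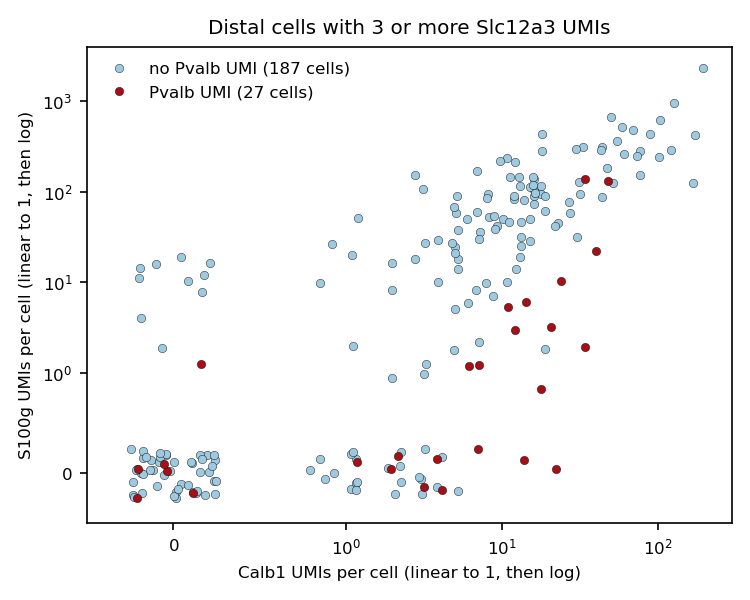
Each point is a distal cell with at least 3 Slc12a3 UMIs, with its Calb1 UMIs on the horizontal and its S100g UMIs on the vertical axis (linear to 1 and logarithmic above, points shifted slightly at random to part them). Most cells without Calb1 lie at 0 S100g, cells with many Calb1 UMIs reach over 100 S100g UMIs, and the 27 cells with a Pvalb UMI (dark red) lie mostly below 10 S100g UMIs.

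Distal cells with a Pvalb UMI were compared with distal cells without one in the 4 libraries that held at least 5 of each (wt 1, wt 2, het 2 and null 2). The gate bears on this division, since a cell without Pvalb had to hold Calb1 or Klk1 to enter and a cell with Pvalb did not. S100g, which went with Calb1, was thus partly fixed by the choice of cells. S100g stood at 7536, 199, 975 and 81.0 CPM with Pvalb and at 9129, 11490, 12720 and 14510 CPM without, so it was lower with Pvalb in 4 of 4 libraries. Its log2 fold change was -4.14 ± 1.07 (SE) with an adjusted p of 0.165 by the edgeR quasi-likelihood test. Wfdc15b, a gene named after its values were seen, had 3.16 ± 0.70 with the same adjusted p. The test called 0 of 395 genes (0%), with 66 at an unadjusted p under 0.05, and DESeq2 called 2. Restricting cells to 25% mitochondrial UMIs left 2 libraries (wt 1 and wt 2) and 143 calls, with the cells and the libraries changed together.

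The 82 principal cells were of several kinds, again divided after the data had been seen and described without a test. With the cells with Slc14a2 and those with at least 10 Klk1 UMIs set aside, Fxyd4 and Hsd11b2 were both present in 38 cells from 10 libraries, with a median of 14.5 Aqp2 UMIs, 8 Fxyd4 UMIs and 6 Hsd11b2 UMIs. In 10 cells from 7 libraries Slc14a2, the urea transporter of the inner medullary collecting duct, was present. These 10 cells had a median of 40 Aqp2 UMIs (9 to 335), and all 10 had Fxyd4, Aqp4 (1 to 43 UMIs) and Plet1 (2 to 74 UMIs). Hsd11b2 and Scnn1g, which encodes a subunit of the epithelial sodium channel, were at 0 UMIs in each of them, which at 10 cells limits cells with a UMI only loosely. Scnn1g was present in 18 of the 38 cells with Fxyd4 and Hsd11b2.

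Another kind, 14 cells from 6 libraries set apart by at least 10 Klk1 UMIs, had 30 to 621 of them with a median of 139. They had 36 to 612 S100g UMIs, 3 to 18 Hsd11b2 UMIs and 0 Aqp4 UMIs. Their Aqp2 was low, at 1 to 9 UMIs, and Fxyd4 was at 0 in 12 of the 14. No other principal cell had more than 1 Klk1 UMI, so the Klk1 counts fell into separate ranges. These cells carried Klk1 and S100g, which the distal group also had. For these 14 cells principal is the name of the gate only. Whether they came from the connecting tubule was not tested, and they stayed in the principal sums below. Slc12a3 was at 0 in all 14, which the gates fix, since a principal cell with Klk1 and Slc12a3 also met the distal gate and was left out. They also held 123 of the 157 Wnk1 UMIs of the principal cells, at 1626 CPM in their pooled sum, near the 1593 CPM of the distal cells. Wnk1 stood at 105 CPM in the cells with Fxyd4 and Hsd11b2, 151 CPM in those with Slc14a2 and 81.0 CPM in the rest. The remaining 20 cells had a median of 2.5 Aqp2 UMIs, and Hsd11b2 was present in 1 of them.

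**Figure D3:**
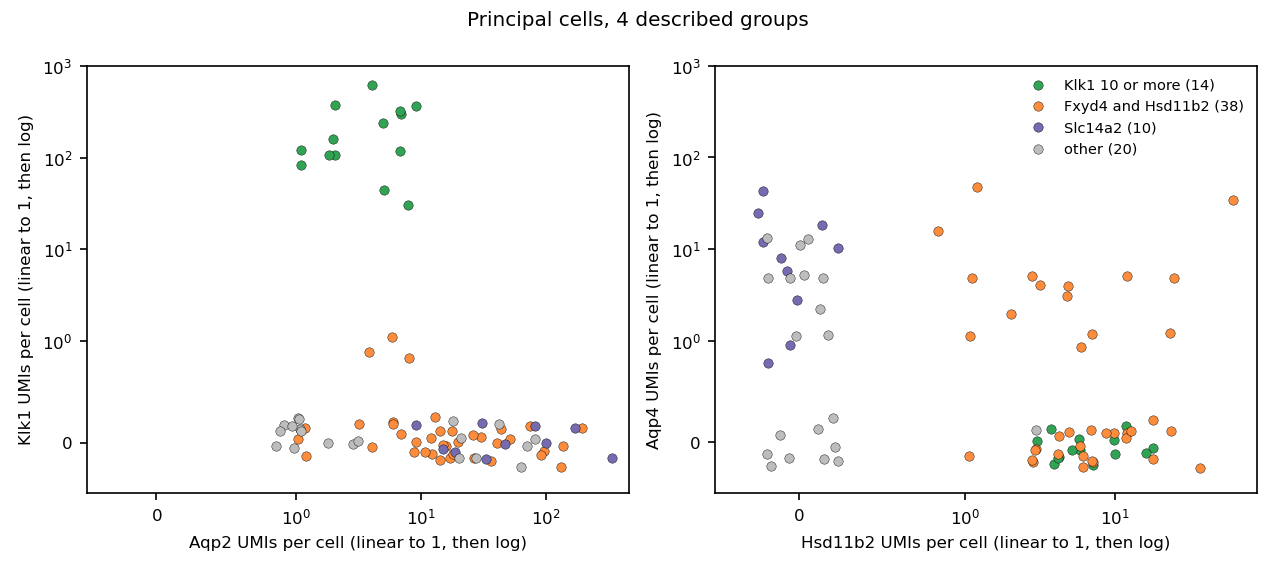
Each point is a principal cell, with Aqp2 against Klk1 UMIs on the left and Hsd11b2 against Aqp4 UMIs on the right (linear to 1 and logarithmic above, points shifted slightly at random to part them), coloured by the 4 kinds described in the text. The 14 cells with many Klk1 UMIs lie between 30 and 621, apart from all others, and the 10 cells with Slc14a2 lie at 0 Hsd11b2.

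Single cells decided some sums of the principal group, as seen for a pair of genes named after their values were seen. Ren1, the gene of renin, had 1367 UMIs in the principal cells, and 1 cell of wt 1 held all of them, at 8.84% of its 15456 UMIs beside 170 Aqp2 UMIs. That cell was among those marked as doublets. In null 2 all 409 UMIs of the epididymal gene Gpx5 came from 1 principal cell.

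Distal and principal sums of the same library were compared in the 6 libraries with at least 5 cells of each (wt 1, wt 2, wt 4, het 1, null 2 and null 3). The edgeR quasi-likelihood test, with the library as a block, called 73 of 930 genes (7.85%), 23 higher in distal cells (2.47%) and 50 higher in principal cells (5.38%). The balance turned without the filter on low counts, with 207 higher in distal and 112 in principal cells, and with at least 2 UMIs of Slc12a3 or Aqp2, with 74 and 57. Since each group was chosen by its genes, genes that vary with those of the gates had to differ too, and the calls describe the groups. With at most 25% mitochondrial UMIs 4 libraries and 441 genes remained and 0 genes were called (44 at an unadjusted p under 0.05), and without the cells marked as doublets 20 were called. With at least 2 UMIs of Slc12a3 or Aqp2, 131 of 706 were called (18.6%), and leaving out 1 library gave 29 (without wt 2) to 69. The 13 mitochondrial genes had log2 fold changes of 0.03 to 0.68 and none of them was called.

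On the distal side Sfrp1, Klhl3 and Wnk1 had the largest changes of the named distal genes, and Klhl3 and Wnk1 act in the control of the sodium chloride cotransporter. Klhl3 stood at 113, 128, 233, 351, 476 and 347 CPM in the distal cells of wt 1, wt 2, wt 4, het 1, null 2 and null 3, and at 0, 19.0, 0, 26.8, 0 and 0 CPM in the principal cells. The log2 fold change was 4.13 ± 0.49 (SE), with an adjusted p of 0.000828 by edgeR, and it was too sparse to be tested at 25% mitochondrial UMIs, without the cells marked as doublets or without wt 2. Wnk1, a kinase at the head of the cascade, stood at 779 to 2369 CPM in distal and 53.5 to 704 CPM in principal cells, with a log2 fold change of 2.62 ± 0.49 and an adjusted p of 0.00964 by edgeR. Sfrp1 was at 160 to 678 CPM and 0 to 38.1 CPM, with the largest change of the named distal genes at 4.34 ± 0.51. The ranges of these 3 genes in the distal and principal sums did not overlap. Their choice by largest change, alike in every library, partly fixes this, and the share over all genes was not counted. Most principal Wnk1 came from the 14 cells with many Klk1 UMIs.

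Fxyd2, a regulatory subunit of the sodium pump, stood at 2675 to 5274 CPM in distal cells against 51.7 to 2039 CPM in principal cells, a log2 fold change of 1.86 ± 0.44 with an adjusted p of 0.0284 by edgeR. Its call was lost without wt 1 (adjusted p of 0.0514 by edgeR), without wt 2 (0.0702) and without het 1 (0.0617), with log2 fold changes of 1.94, 1.98 and 2.00, and without the library as a block (0.0514). Sgms2, a sphingomyelin synthase, stood at 130 to 492 CPM against 38.1 to 103 CPM, and Slc16a7, a monocarboxylate transporter, had a log2 fold change of 1.67 ± 0.28, whose call was lost without the block (adjusted p of 0.0560 by edgeR). Cavin2, a coat protein of caveolae, had 1.96 ± 0.44, and Wfdc15b 1.95 ± 0.35. The Cavin2 call was lost without wt 1 (adjusted p of 0.0649 by edgeR), wt 2 (0.0700) or wt 4 (0.0891), and the Wfdc15b call without the cells marked as doublets (0.116, with a log2 fold change of 1.75). Cavin2 is also abundant in endothelium, whose 4 markers summed to a median of 0.0325% in distal and 0% in principal cells.

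The class II antigen presentation genes H2-Ab1 and H2-Aa were higher in distal cells too. H2-Ab1 was at 158, 337, 255, 67.1, 333 and 293 CPM in the distal cells of wt 1, wt 2, wt 4, het 1, null 2 and null 3, and at 61.8, 66.6, 207, 26.8, 0 and 0 CPM in the principal cells. Its log2 fold change was 2.05 ± 0.44, and that of H2-Aa was 1.96 ± 0.47. The H2-Ab1 call was lost without wt 1 (adjusted p of 0.0514 by edgeR) or wt 2 (0.101) and with Slc34a1, Slc12a1 and Foxi1 at 0 (0.226), and the H2-Aa call without wt 1 (0.0866), wt 2 (0.0657) or het 1 (0.0669) and without the library as a block (0.107). Neither gene passed the filter on low counts without the cells marked as doublets. The gates required 0 Ptprc UMIs, and the 5 other leukocyte markers, among them the class II chaperone gene Cd74, summed to 0.00148 to 0.156% of UMIs in distal and 0.00865 to 0.0390% in principal cells. The median of these sums over libraries was 0.0592% in distal and 0.0141% in principal cells, and the part of leukocyte RNA in the class II genes was not tested.

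On the principal side Apela, which encodes a peptide ligand of the apelin receptor, stood at 297, 333, 879, 496, 214 and 175 CPM in wt 1, wt 2, wt 4, het 1, null 2 and null 3. In distal cells it stood at 10.1, 17.4, 0, 0, 0 and 0 CPM, a log2 fold change of -5.33 ± 0.52 (distal over principal, adjusted p of 0.000263 by edgeR). Plet1, a surface glycoprotein gene, stood at 214 to 2187 CPM against 0 to 45.4 CPM, a log2 fold change of -5.07 ± 0.51. Mal2, which acts in transport to the apical membrane, had -3.55 ± 0.33. Cryab, a small heat shock protein of the renal medulla, had -2.86 ± 0.64 and was uneven among distal cells, at 155 and 395 CPM in wt 1 and wt 2 and at most 15.9 CPM in the other 4 libraries. Its call was lost without wt 1 (adjusted p of 0.0629 by edgeR), het 1 (0.0643) or wt 4 (0.0686) and without the library as a block (0.0993). Bcam, a laminin receptor, had -2.68 ± 0.44, and Npnt, a matrix ligand of integrins, -2.42 ± 0.31. Without the cells marked as doublets the calls of Cryab (adjusted p of 0.143 by edgeR) and Bcam (0.0837) were lost, with log2 fold changes of -2.99 and -3.03.

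**Figure D4:**
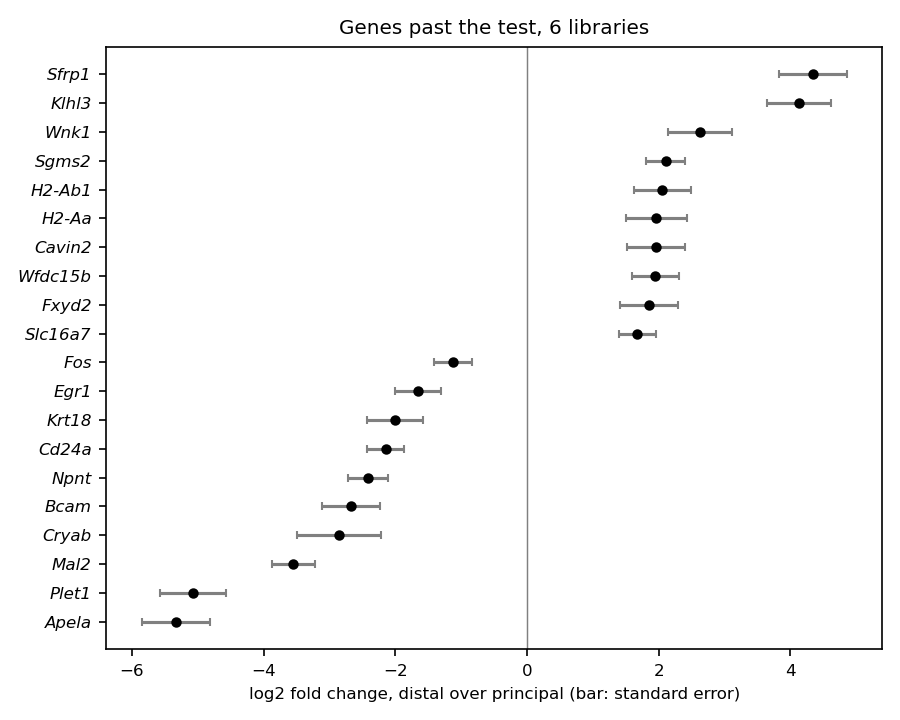
Points are log2 fold changes of distal over principal sums for 20 named genes past the edgeR test, from 6 libraries, and bars are standard errors. Sfrp1 and Klhl3 lie above 4, and Apela and Plet1 below -5. Each kept its direction in the alternatives that tested it, but several alternatives left some of these genes untested.

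Lists of kidney genes were then counted, with gate genes left out. Of 15 distal convoluted tubule genes 8 passed the filter on low counts, 5 were higher in distal cells (Klhl3, Wnk1, Sgms2, Fxyd2 and Slc16a7) and 0 in principal cells. Over all 930 genes tested 2.47% were higher in distal cells. The median log2 fold change of the 8 was 1.77 against 0.03 over all genes tested. Without the cells marked as doublets 0 of the 6 that could be tested were called, with Wnk1 at an adjusted p of 0.116 and Fxyd2 and Slc16a7 at 0.0694 by edgeR. Their log2 fold changes were then 2.41, 1.40 and 1.67, and this setting also left 4 of the 6 libraries. At 25% mitochondrial UMIs 0 of 3 were called. Without the library as a block 3 of 8 were called. Of 14 principal cell genes 4 passed the filter and 3 were higher in principal cells (Apela, Npnt and Krt18), against 5.38% of all genes tested. The median of the 4 was -2.21, and the Krt18 call was lost without wt 2 (adjusted p of 0.0563 by edgeR) or het 1 (0.0574). Of 15 genes of sodium and potassium transport 6 passed the filter and none was higher in principal cells. Kcnj1, the potassium channel that secretes potassium, was at 104 to 547 CPM in distal and 12.4 to 563 CPM in principal cells, with a log2 fold change of 0.40 ± 0.37 that did not pass (adjusted p of 0.635 by edgeR). Scnn1a, the alpha subunit gene of the epithelial sodium channel, had 0.37 ± 0.36 (adjusted p of 0.648 by edgeR).

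Of 8 calcium genes 4 passed the filter and 0 were called, but Kl and Vdr, the vitamin D receptor gene, were called higher in distal cells by DESeq2, with at least 2 UMIs of Slc12a3 or Aqp2 and with the 2 libraries without a genotype added. S100g was at 8981 to 21570 CPM in distal and 124 to 16630 CPM in principal cells, and it was higher in distal cells in 4 of 6 libraries and in principal cells in wt 2 and het 1. Per cell, the 14 principal cells with many Klk1 UMIs had a median of 210.5 S100g UMIs. Each of the other kinds of principal cell had a median of 0. Kl was higher in distal cells in 6 of 6 libraries, with a log2 fold change of 1.83 ± 0.53 and an adjusted p of 0.0646 by edgeR. Osmotic response genes (2 of 8 passed the filter) and tubule transcription factors (1 of 15) gave 0 calls, as did the epithelial-mesenchymal transition list (1 of 10). Among injury genes 5 of 10 passed the filter and Cd24a was higher in principal cells, with a log2 fold change of -2.15, a call lost with Slc34a1, Slc12a1 and Foxi1 at 0 (-1.74, adjusted p of 0.104 by edgeR). Among dissociation stress genes 10 of 12 passed it and Fos (-1.12) and Egr1 (-1.65) were higher in principal cells. Of all genes tested 5.38% were higher in principal cells. The Fos call was lost without any of wt 1, wt 2, wt 4, het 1 and null 2, with adjusted p-values of 0.0657 to 0.131 by edgeR, and with at least 500 genes per cell. The Egr1 call was lost without wt 2 (adjusted p of 0.0637 by edgeR), het 1 (0.0560) or wt 4 (0.0688). Both were lost without the filter, without the library as a block and without the cells marked as doublets. The filter thus removed most members of several lists, and counts over members that passed it do not speak for the list.

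**Figure D5:**
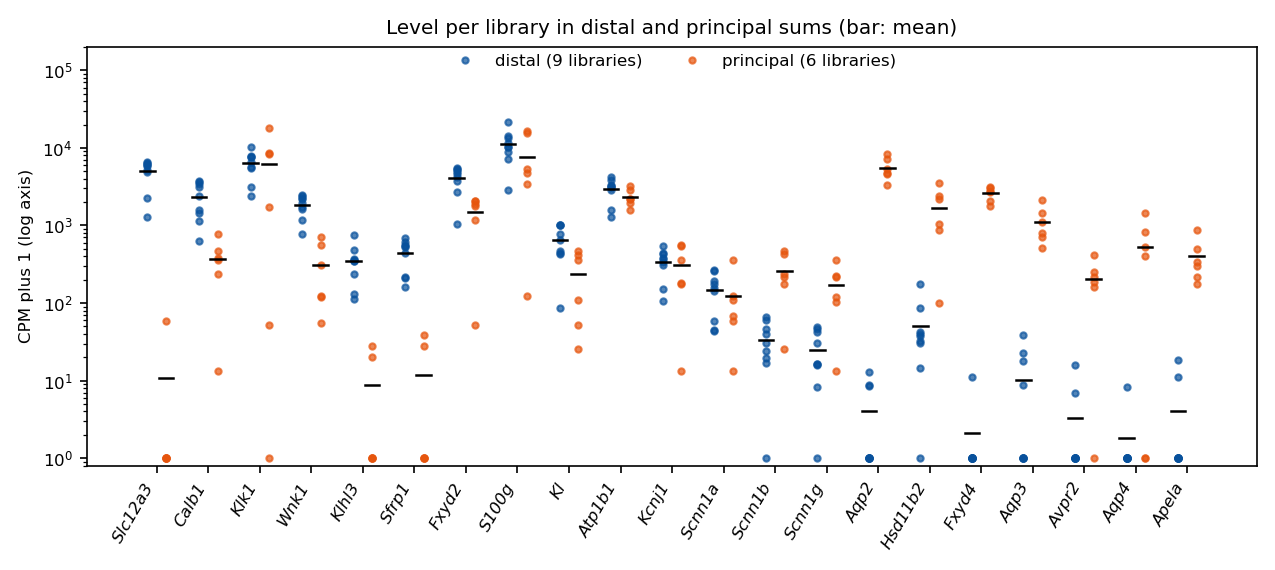
Each point is a library's summed level in CPM plus 1 on a logarithmic axis, in blue for distal cells (9 libraries with a genotype) and in orange for principal cells (the 6 with at least 5 such cells), and black bars are means. The genes run from those of the distal gate on the left to those of the principal side on the right, with S100g, Atp1b1, Kcnj1 and Scnn1a overlapping between the groups.

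The sparse transport genes were read from a fit without the filter, in which 319 of 15632 genes were called (2.04%) and the median log2 fold change of all genes was 0.48. Scnn1b and Scnn1g, the beta and gamma subunit genes of the epithelial sodium channel, were called higher in principal cells. Scnn1b was at 15.9 to 65.6 CPM in distal cells of the 6 libraries and 24.7 to 465 CPM in principal cells. Scnn1g was at 7.29 to 47.6 and 12.4 to 362 CPM. Avpr2, the vasopressin receptor gene, had 72 UMIs in principal and 2 in distal cells of the libraries with a genotype, and Aqp4, a basolateral water channel gene, had 253 and 1. Kcne1, a potassium channel subunit gene, had 29 and 0. In this fit 10 of 15 distal convoluted tubule genes were higher in distal cells, Egf and Trpm6 (a magnesium channel) among them, and 9 of 14 principal cell genes were higher in principal cells. Of 8 calcium genes 4 were higher in distal cells (S100g, Kl, Vdr and Atp2b4), although S100g, with a log2 fold change of 2.14 ± 0.43, and Atp2b4 were each higher there in 4 of 6 libraries. Of 8 osmotic genes Akr1b3 and Slc14a2 were higher in principal cells, each in 4 of 6 libraries. Of 15 tubule transcription factors Lhx1 and Esrrg were higher in distal and Elf3 and Ehf in principal cells. Among injury genes Cp was higher in distal cells (in 4 of 6 libraries) and Cd24a in principal cells (in 6 of 6), and 0 stress or epithelial-mesenchymal transition genes were called.

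The genotype comparisons asked whether loss of Nalcn changed these cells. Nalcn (chr14:123276634-123627144, minus strand) had 0 UMIs in the 1356283 UMIs of distal cells and 0 in the 333671 UMIs of principal cells, in every genotype. A count of 0 allows a level of up to 2.21 CPM in distal and 8.99 CPM in principal cells, so the deletion could not be checked in them. Prom1, whose promoter drives the recombinase, had 15 UMIs in distal and 0 in principal cells.

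Distal cells made up 0.662, 0.160, 0.118, 0.197 and 0.602% of passing barcodes in wt 1 to wt 5, 0.275 and 0.222% in het 1 and het 2, and 0.293 and 0.313% in null 2 and null 3. The wt libraries spread on both sides of all others. Counting error alone gave wt 5, with 6 cells, an exact (Clopper-Pearson) 95% interval of 0.221 to 1.31%, and wt 1, with 58, one of 0.503 to 0.855%. The mean was 0.276 ± 0.039% (SD, n = 4) in het and null together and 0.348 ± 0.262% (SD, n = 5) in wt, with p = 0.532 by an exact two-sided permutation test (0.798 adjusted over 3 shares). The difference of -0.0724 changed sign to 0.0433 with at least 2 UMIs of Slc12a3 or Aqp2 and to 0.00610 without wt 1. The share also moves with the amount of kidney in a pool, which cannot be told apart from it here. Slc12a3 was found in 10.9% of passing barcodes in wt 1 and 7.03% in wt 5, against 1.58 to 4.93% in the other libraries with a genotype. Umod alone removed 80, 90, 48, 81 and 8 barcodes in wt 1 to wt 5. It removed 105 and 50 in het 1 and het 2, and 88 and 147 in null 2 and null 3. The part of either in the share was not tested.

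Principal cells made up 0.0571, 0.0642, 0.0296, 0.0343 and 0% of passing barcodes in wt 1 to wt 5, 0.0915 and 0.0296% in het 1 and het 2, and 0.0599 and 0.0439% in null 2 and null 3. The mean was 0.0562 ± 0.0266% (SD, n = 4) in het and null and 0.0370 ± 0.0254% (SD, n = 5) in wt, p = 0.341 by the exact two-sided permutation test (0.798 adjusted). When barcodes also had to lack Slc34a1, Slc12a1 and Foxi1, the means were 0.0498 and 0.0126% and p = 0.00794 by the exact permutation test, the smallest that the splits of 9 libraries allow and not adjusted over the alternatives. Whether a cell has 0 UMIs of a gene depends on its depth. The median depth of principal cells was 2780 to 15456 UMIs in wt 1 to wt 4, 6596.5 and 2341.5 in het 1 and het 2, and 1431.5 and 1837 in null 2 and null 3. The part of depth in this difference was not tested. Distal cells as a share of both kinds were 82.3 ± 6.56% (SD, n = 3) and 82.2 ± 8.70% (SD, n = 4), exact permutation p = 1, in libraries with at least 20 cells of both kinds together.

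In distal cells null was compared with wt in libraries with at least 20 cells (wt 1, wt 2, wt 4, null 2 and null 3, with het 1 in the fit and the labelled sex as covariate). The edgeR quasi-likelihood test called 0 of 2838 genes (0%), with 107 at an unadjusted p under 0.05, and DESeq2 called 2. Wnk1 stood at 779, 1162 and 2369 CPM in wt 1, wt 2 and wt 4 and 2222 and 2272 CPM in null 2 and null 3, with a log2 fold change of 0.65 ± 0.36 that did not pass (adjusted p of 0.943 by edgeR). Klhl3 had 1.37 ± 0.43 and Egf 2.32 ± 0.53, both at an adjusted p of 0.943 by edgeR. Without wt 1 the same test called 31 genes and without wt 2 it called 1, and these are the libraries in which 74.1% and 62.5% of distal cells had a single Slc12a3 UMI. In them Kap, named after its values were seen and known as an androgen-regulated gene of the proximal tubule, stood at 1545 and 2719 CPM, against 0 to 7.46 CPM in the other libraries of the fit. The part of such cells in the number of calls was not tested.

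Het was compared with wt in libraries with at least 10 distal cells, since het 2 had 15. The edgeR test called 0 of 2076 genes (0%), with 204 at an unadjusted p under 0.05, and DESeq2 called 0. Klhl3 had a log2 fold change of 0.95 ± 0.53 (adjusted p of 0.594 by edgeR), Wnk1 0.66 ± 0.45 and S100g 0.19 ± 0.31. No list of distal, calcium, transport, injury or stress genes had a called member in either genotype comparison of distal cells.

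In principal cells null was compared with wt in libraries with at least 5 cells, and 3 of 1237 genes (0.243%) were called by edgeR, Gpx5, Spag11b and Crisp1. They are epididymal genes, named after their values were seen, and were higher in null. Gpx5 stood at 21860 CPM in null 2, 292 CPM in null 3 and 0 to 19.0 CPM in wt, and the null 2 value came from the single cell named above. The test called 0 genes without null 2, and also without wt 1, wt 2, het 1 or null 3 and without sex as covariate. The Gpx5 log2 fold change was 10.0 with all libraries, and 10.0, 10.5 and 10.1 without wt 1, wt 2 and null 3. Of the kidney lists 0 members were called, and Npnt for example stood at 395, 200 and 517 CPM in wt 1, wt 2 and wt 4 and 214 and 702 CPM in null 2 and null 3. Het principal cells could not be compared, since 1 het library had at least 5 of them. Whether distal and principal cells differed in their response to genotype was tested as an interaction, which called 0 of 930 genes (0%) by edgeR, with 48 at an unadjusted p under 0.05, and 0 by DESeq2.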

How the data were processed

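Single-cell RNA was captured by droplets (10x Chromium, 3′ chemistry) from papain- or collagenase-dissociated organs that the authors marked with hashtag antibodies and pooled. The authors aligned reads to mm10 and deposited UMI counts per gene and barcode, whole numbers without normalization. Matrix headers name Cell Ranger 3.0.2 and the submitters' processing notes 2.1.1. The authors' later filters had not been applied to the deposited counts, and with the hashtags left aside no barcode had an organ beyond what its genes show.

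The members, gene lists and tests were chosen with earlier results of these data known. The files held 31053 features. Groups came from the labels, and 2 tissue libraries whose title and strain name different genotypes stayed without one. Counts were summed per library and kind of cell, and tested with the edgeR 4.0.16 quasi-likelihood test (R 4.3.3, TMM, filterByExpr, Benjamini-Hochberg at 0.05), with DESeq2 1.42.0 as an alternative. Gate genes were left out of the tests, and mitochondrial genes stayed in the tests and in the totals behind CPM. SE is the log2 fold change divided by the root of F. The planned minimum of 20 cells per library left no library for the distal and principal comparison, the Pvalb comparison, the interaction or the principal tests, so 5 was used after the data had been seen, and 10 for het distal cells. Named genes are the members of the fixed lists that moved most and, per direction, the 8 with the largest change that passed the test, moved alike in every library, reached 100 CPM and were in no list of another cell type. Genes of other lists or outside the rule are said to be so, and some named genes are not reported here. Scrublet (scanpy 1.11.5) marked in each library the highest scores up to an expected rate of 0.8% per 1000 barcodes, at most 25%, and marked cells were kept in the main values. Shares were compared by exact permutation over libraries (Python 3.11.15, NumPy 2.4.6), and Clopper-Pearson intervals were computed with SciPy 1.17.1. Intervals and limits cover counting error only, a count of 0 being read as up to 3 counts. On data simulated for the distal and principal comparison (960 genes), the test recovered 76 of 76 genes changed 4-fold and 48 of 83 changed 2-fold, with 3 false calls. For null against wt in distal cells (2087 genes) it recovered 39 of 71 changed 4-fold and 1 of 66 changed 2-fold, with 0 false calls. The simulation had a single fixed spread, a shared profile and no library effect, and changed only better covered genes. Its counts are therefore not the power of the test on the real sums.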

Additional observations from a re-analysis of the deposited data

Results flagged for a closer look

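One of the 2 tissue libraries without an assigned genotype lay outside the comparisons and above the wt libraries. In the female library of 647 days, titled Nalcn-null but given a strain without a Nalcn allele, principal cells made up 0.0862% of passing barcodes (18 cells), above the highest wt library at 0.0642% but below het 1 at 0.0915% (10 cells). The reason was not tested. Among wt values 26 groups were examined for a single library standing far from the others and 0 were found. The rule could not flag libraries that deviated together, as wt 1 and wt 2 did for Slc12a3 in distal cells.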

How the results depend on the processing

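The distal against principal comparison called 73 genes, and 111 by DESeq2, 319 without the filter on low counts, 0 with at most 25% mitochondrial UMIs, 20 without the cells marked as doublets, 131 with at least 2 UMIs of Slc12a3 or Aqp2, 44 when Slc34a1, Slc12a1 and Foxi1 also had to be 0, and 121 with the 2 libraries without a genotype added. The stricter settings left fewer libraries, 4 in the mitochondrial, doublet and marker settings. Leaving out 1 library gave 29 (without wt 2) to 69, with 35 without het 1 and 45 without wt 4. DESeq2 shared all 73 of these genes, the unfiltered fit 38, and the fit with at least 2 UMIs 51, each with the same direction. The Pvalb comparison called 0 genes, and 2 by DESeq2, 51 without the filter, 143 with at most 25% mitochondrial UMIs on 2 libraries, 4 with at least 500 genes per cell, 1 with Slc34a1, Slc12a1 and Foxi1 at 0, and 0 to 4 when 1 library was left out. The interaction called 0 genes, and 1 with at least 2 UMIs of the anchor gene. For null against wt in distal cells the 0 became 2 by DESeq2, 12 without the filter, and 0 to 31 when 1 library was left out (31 without wt 1, 1 without wt 2). For het against wt in distal cells the 0 became 132 without the filter, 2 with Slc34a1, Slc12a1 and Foxi1 at 0, and 0 to 2 when 1 library was left out. For null against wt in principal cells the 3 became 17 without the filter, 1 with at least 2 UMIs of the anchor gene, 0 without sex as covariate and 0 to 9 when 1 library was left out (9 without wt 4, 0 without any of the others). The difference in distal share reversed to 0.0433 with at least 2 UMIs and to 0.0361 with Slc34a1, Slc12a1 and Foxi1 at 0, and ran from -0.130 to 0.00610 when 1 library was left out. The difference in principal share passed the threshold at 0.0372 with Slc34a1, Slc12a1 and Foxi1 at 0. Distal cells as a share of both kinds differed by 0.132 percentage points, and by -5.16 with at least 500 genes, -5.40 without cells marked as doublets, 10.1 with at least 2 UMIs of Slc12a3 or Aqp2 and -3.45 to 3.78 when 1 library was left out. The causes were not tested.

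The labels give replicate numbers shared between genotypes. The deviations of same-numbered libraries from their group means correlated at -0.238 to 0.0962, and 0 of 8 libraries matched its own number best. In a group of 2 libraries these deviations mirror each other, so the values cannot decide whether the numbers pair the samples. A replicate block gave 3 calls in place of 0 for het against wt in distal cells, 0 for null against wt with at least 10 cells and 0 for the interaction. Without the library as a block the distal against principal comparison called 63 genes.

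Not run, for want of libraries or residual degrees of freedom, were het against wt in principal cells, all comparisons at 20 cells other than null against wt in distal cells, the mitochondrial setting of the genotype comparisons, the doublet and marker settings of the interaction and of the principal comparison, distal cells as a share of both kinds in the mitochondrial and marker settings, and the replicate block for null against wt in principal cells and in distal cells at 20 cells. With at least 2 UMIs of Slc12a3, or with the marker setting, null against wt in distal cells could be fitted at 10 cells and called 0 genes. The principal cells gave the smaller total, 333671 UMIs against 1356283 in distal cells, although their median depth per cell was higher. The minimum of 5 cells, the pairing of settings with at least 10 cells, and the subdivisions of distal and principal cells were chosen after seeing the data.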
